A study of Mus musculus with 18 samples.

Results

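Chemokines are small secreted proteins, named Ccl or Cxcl, that bind G protein-coupled receptors, named Ccr or Cxcr, and direct the movement of leukocytes into tissue. The family was taken as the gene symbols analysed here that begin with Ccl, Cxcl, Ccr or Cxcr and a digit, and a member needed at least 10 counts in 3 or more of the 18 libraries. Of the 18922 genes in the table, 49 carried such a symbol and 32 reached the minimum, 25 ligands and 7 receptors. The other 17 were Ccl1, Ccl11, Ccl17, Ccl20, Ccl21a, Ccl22, Ccl24, Ccr10, Ccr1l1, Ccr3, Ccr4, Ccr6, Ccr9, Cxcl15, Cxcl17, Cxcr1 and Cxcr5. Just inside the minimum were Cxcr3, with 10 counts in 3 libraries, and Ccr7, in 4 libraries. Just outside it were Ccr9 and Ccr10, in 2 libraries each. With a minimum of 20 counts 28 members would remain. Cxcr3, Ccr7, Cxcl3, Cxcr6, Cxcr2 and Cxcl2 reached the minimum in 3 to 6 libraries, most of them from core tissue. Part of their difference between regions therefore came with the choice. For Cxcl3, Cxcr2 and Cxcl2 these libraries were more often of knockout than of wild-type mice. Part of their difference between genotypes in core tissue thus also came with the choice.

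The samples were brain tissue of male C57Bl6 mice of 8 to 10 weeks, either Trem2 knockout (KO) or Trem2 wild type (WT), all of which had a photothrombotic stroke. Rose Bengal, a dye given at 50 mg/kg, was activated over the cortex by a 525 nm laser at 125 mW, which closes the vessels within a lesion of 3 mm across. At 7 days after injury tissue was dissected after staining with TTC, a dye that colours living tissue. The 6 groups of 3 libraries each were KO core, WT core, KO peri-infarct, WT peri-infarct, KO contralateral and WT contralateral, where core is the infarct and peri-infarct the tissue around it. Contralateral tissue came from the same kind of injured mice, and no unlesioned group was among the samples used here. The labels do not give the knockout allele, and they do not say that a replicate number is 1 animal, so p-values reflect the spread of these libraries, some of which may be technical. Trem2 is a receptor of microglia and macrophages that binds lipids, and the groups allow KO to be set against WT within a region and regions against each other within a genotype.

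In the inflamed brain, chemokines are made by microglia, astrocytes, endothelium and the leukocytes that arrive, and each receptor draws its own cells. Ccr2 carries inflammatory monocytes, Cxcr2 neutrophils, Cxcr3 activated T cells and Ccr7 dendritic cells. Another part of the family is made without inflammation, such as Cxcl12, which holds cells that carry Cxcr4 in place, and Cxcl14. Many inducible chemokine genes lie side by side in the genome. In RefSeq order for assembly GRCm38.p6, chromosome 5 holds Cxcl5, Cxcl3, Cxcl1, Cxcl2, Cxcl9, Cxcl10 and Cxcl13, and chromosome 11 holds Cxcl16, Ccl2, Ccl7, Ccl12, Ccl8, Ccl5, Ccl9, Ccl3, Ccl4 and Ccr7. Cxcr6, Ccr1 and Ccr2 lie on chromosome 9, and chromosome 4 holds Ccl27a, Ccl21d, Ccl21b, Ccl27b and Ccl19.

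The 250 bases upstream of the start site are shown for 5 ligands of chromosome 5 because the largest fold changes of ligands between genotypes in core tissue, given below for the fit without 1 library, fell on Cxcl2, Cxcl3 and Cxcl9, while Cxcl1 and Cxcl10 are their neighbours. The bases are RefSeq's, in build GRCm38.p6, written 5′ to 3′ on the strand of the gene. Capitals mark matches, on either strand, to GGNNNTTCC, a loose pattern of NF-kB sites, or to GAAANNGAA, a part of interferon-response elements.
Cxcl1 (chr5:90890995-90891244, plus strand): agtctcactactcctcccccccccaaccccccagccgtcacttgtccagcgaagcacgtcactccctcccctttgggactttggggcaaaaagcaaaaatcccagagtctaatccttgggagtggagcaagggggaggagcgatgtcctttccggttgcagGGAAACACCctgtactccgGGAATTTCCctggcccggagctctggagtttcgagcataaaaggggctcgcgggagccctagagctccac
Cxcl2 (chr5:90903649-90903898, plus strand): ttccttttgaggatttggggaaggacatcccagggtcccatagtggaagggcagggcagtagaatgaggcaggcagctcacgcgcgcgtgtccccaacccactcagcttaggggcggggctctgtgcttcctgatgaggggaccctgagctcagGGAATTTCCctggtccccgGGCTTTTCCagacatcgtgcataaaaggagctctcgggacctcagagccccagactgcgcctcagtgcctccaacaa
Cxcl3 (chr5:90785851-90786100, plus strand): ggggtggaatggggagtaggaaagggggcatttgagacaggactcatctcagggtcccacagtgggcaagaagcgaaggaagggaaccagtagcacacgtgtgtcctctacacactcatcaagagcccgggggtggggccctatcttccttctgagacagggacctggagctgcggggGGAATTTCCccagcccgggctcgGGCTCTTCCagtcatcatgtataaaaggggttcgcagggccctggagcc
Cxcl9 (chr5:92328080-92328329, minus strand): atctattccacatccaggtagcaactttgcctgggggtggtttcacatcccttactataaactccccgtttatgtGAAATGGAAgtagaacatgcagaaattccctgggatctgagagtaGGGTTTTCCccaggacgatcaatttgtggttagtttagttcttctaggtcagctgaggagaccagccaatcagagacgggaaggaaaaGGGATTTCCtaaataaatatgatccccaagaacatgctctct
Cxcl10 (chr5:92348890-92349139, minus strand): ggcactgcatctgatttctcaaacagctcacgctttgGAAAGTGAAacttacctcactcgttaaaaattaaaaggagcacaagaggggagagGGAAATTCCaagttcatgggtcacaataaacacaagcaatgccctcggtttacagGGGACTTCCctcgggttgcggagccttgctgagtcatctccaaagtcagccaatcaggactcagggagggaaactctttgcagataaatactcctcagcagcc
Cxcl1, Cxcl2 and Cxcl3 each held the same 9 letters, GGAATTTCC, which match the first pattern on both strands. They begin at position -70 from the start site in Cxcl1, -96 in Cxcl2 and -72 in Cxcl3, and each of these genes held 1 further match. Cxcl9 and Cxcl10 each held 2 stretches that match GGNNNTTCC and 1 match to GAAANNGAA. Upstream sequences were found for 25 of the 32 members. Of these, 9 held GGNNNTTCC in at least 1 of their start sites and 6 held GAAANNGAA, namely Ccl3, Ccl19, Ccr2, Cxcl9, Cxcl10 and Cxcl14. Among the 32851 start sites of all genes, 15.7% held GGNNNTTCC and 7.13% held GAAANNGAA within the same distance. The 25 members had 31 start sites, so their counts by gene are not a like measure to these shares by start site. A match describes the letters and not a bound site. Ccl2, Ccl4, Ccl5, Ccl7, Ccr7, Cxcl5 and Cxcl16 are named only.

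Total counts were 16993978 to 17691801 in 17 libraries and 18713770 in the third WT core library, which stood apart. In it the 10 most abundant genes took 15.5% of the counts, against 3.27% to 5.38% in the others, and the summed level of 6 neuron markers was 18.2 CPM (counts scaled for library size), against 4030 to 7090 CPM in the other core libraries. Results that rest on it are therefore given with all 18 libraries and with this library left out, and it also entered the spread that the fit shares between groups. Trem2 had 5.23 to 8.24 CPM in KO core and 184 to 920 CPM in WT core. It had 2.47 to 3.93 CPM in KO peri-infarct and 91.4 to 130 CPM in WT peri-infarct tissue, and 0.337 to 0.902 CPM in KO contralateral and 20.5 to 28 CPM in WT contralateral tissue. The genotype labels thus held in every library. CPM here includes TMM, a factor per library that corrects for composition. In bulk tissue, fewer cells of a type and less RNA per cell cannot be told apart.

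Levels of different genes can be compared only per length, as TPM (abundance scaled for transcript length and library). By the median of 3 libraries the most abundant member of KO core was Ccl27a, at 161 TPM, followed by Cxcl12 at 116, Ccl12 at 98.6 and Cxcl14 at 97.3 TPM. In KO contralateral tissue the first were Ccl27a at 299, Cxcl14 at 135, Ccl27b at 72.0 and Ccl21b at 70.5 TPM, and Ccl12 stood at 10.1 TPM. The order in WT contralateral tissue was Ccl27a at 286, Cxcl14 at 124, Ccl27b at 87.7 and Ccl21b at 60.8 TPM. The receptor Cxcr4 had 25.9 TPM in KO core, 26.6 in WT core, 11.1 in KO peri-infarct, 10.7 in WT peri-infarct, 2.52 in KO contralateral and 3.74 TPM in WT contralateral tissue. Values of Ccl27a, Ccl27b, Ccl21b, Ccl21d and Ccl19 are uncertain, since their counts were fractional in nearly all libraries, as happens when reads are split between near-identical genes.

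**Figure D1:**
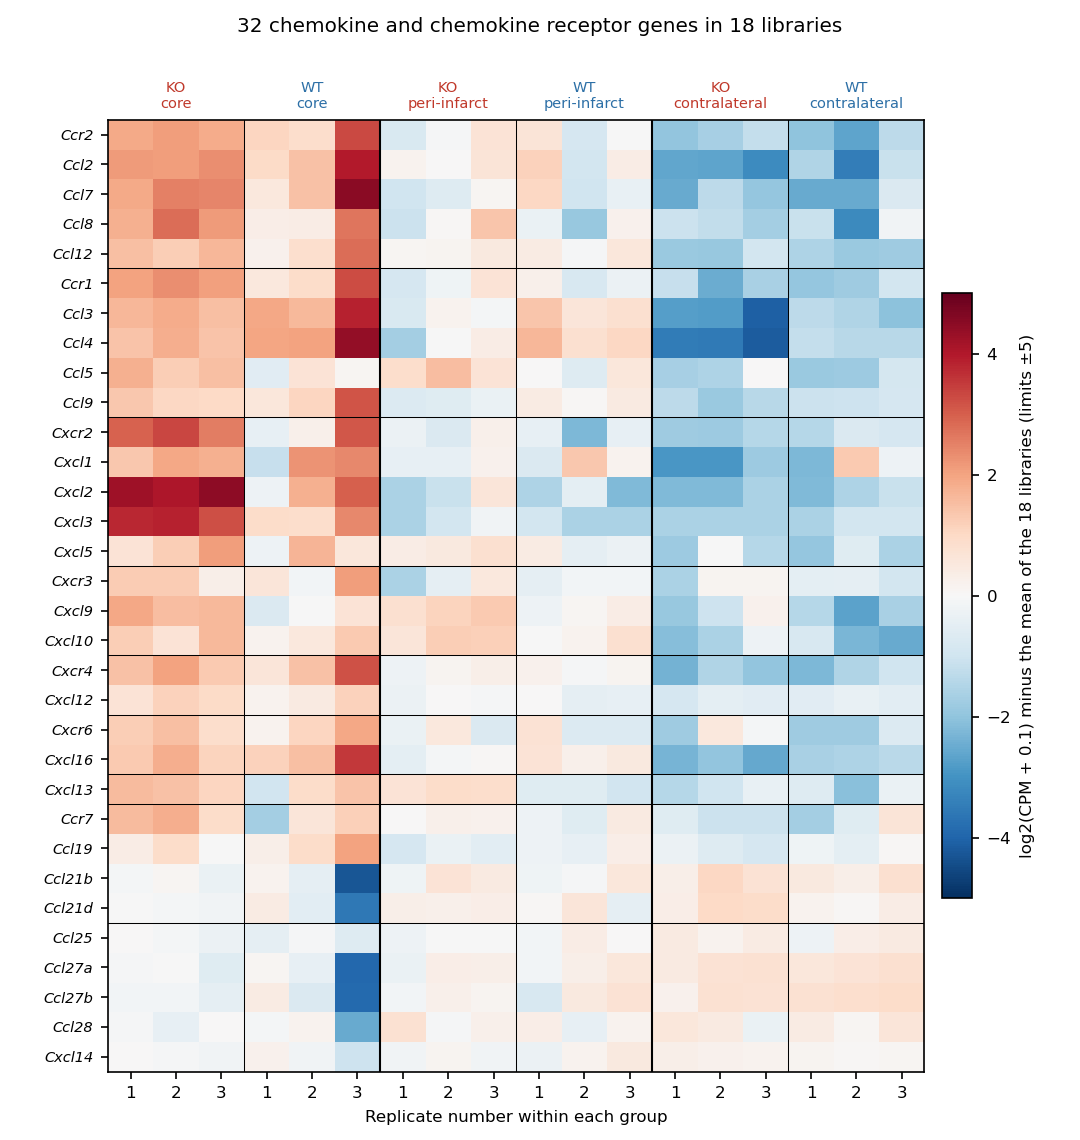
Each row is 1 of the 32 members and each column 1 of the 18 libraries, in 6 groups, and colour gives log2(CPM + 0.1) minus the mean of the 18 libraries for that gene. Lines part the receptor groups in the order of the text. Inducible ligands and receptors are red in core and blue in contralateral libraries, and the third WT core library is the reddest of all for Ccl7 and the bluest for Ccl21b.

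Most inducible chemokines were higher in lesion tissue. A gene was called at an edgeR adjusted p under 0.05 (quasi-likelihood test, Benjamini-Hochberg over all genes tested), and 31 of the 32 members passed the filter on low counts with all libraries, all but Ccr7, while 32 passed without the third WT core library. In KO core against KO contralateral tissue 21 members were called, each of them higher, where 19.7% of the 15329 genes tested were called higher. When the third WT core library was left out 23 were called higher and 4 lower, where 29.6% and 27.8% of 15432 genes were. In WT core against WT contralateral tissue 22 members were called, each higher, where 29.1% of all genes were. Without the third WT core library 18 were called higher and 1 lower, where 23.6% and 16.6% of all genes were. The members' median log2 fold change was 2.66 in KO core, where that of all genes was -0.01, and 2.45 in WT core, or 1.80 without the library, where that of all genes was -0.03, or -0.02. In a fit of only the WT core and WT contralateral libraries 0 members were called by edgeR, although 15 had an unadjusted p under 0.05. With all libraries DESeq2 called 23 higher and 3, Ccl25, Ccl27a and Ccl27b, lower in WT core.

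Fewer members passed around the infarct. In KO peri-infarct against KO contralateral tissue Ccl2, Ccl3, Ccl4, Ccl5, Cxcl10 and Cxcl16 were called higher, 6 members where 4.42% of all genes were called higher, and without the third WT core library 15 were, where 13.7% were. Leaving out KO contralateral replicate 1 or 2 or KO peri-infarct replicate 2 or 3 left 0 called by edgeR, with DESeq2 at 9 over all libraries. It left 2 without WT contralateral replicate 3 or KO peri-infarct replicate 1, 3 without KO contralateral replicate 3 or KO core replicate 1, and 9 without WT core replicate 1. The third WT core library is in neither group, but it entered the shared estimate of spread, the filter and the TMM factors, and without it the median log2 fold change of the members was 1.69, against 1.77 with all libraries. In WT peri-infarct against WT contralateral tissue Ccl3, Ccl4 and Cxcl16 were called higher, 3 members where 3.27% of all genes were, and 11 without the library, where 14.2% were. Leaving out any WT contralateral library or WT peri-infarct replicate 1 or 3 left 0 called by edgeR, with DESeq2 at 6 over all libraries. 1 was left without KO contralateral replicate 2, KO peri-infarct replicate 2 or 3, WT peri-infarct replicate 2 or any KO core library. Between KO core and KO peri-infarct tissue 0 members were called by edgeR with all libraries, where 0% of all genes were, while 16 members passed an unadjusted p of 0.05 and DESeq2 called 11. With the third WT core library left out 16 were called higher in KO core, where 24.3% of all genes were. Between WT core and WT peri-infarct tissue 14 were called higher in core, where 12.3% of all genes were, but only Cxcl12, Cxcl16 and Cxcl3 remained without the library, where 4.88% were. Leaving out any 1 WT peri-infarct library instead left 0 members called by edgeR there. Leaving out 1 library of the other 4 groups outside this comparison left 5 to 10.

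**Figure D2:**
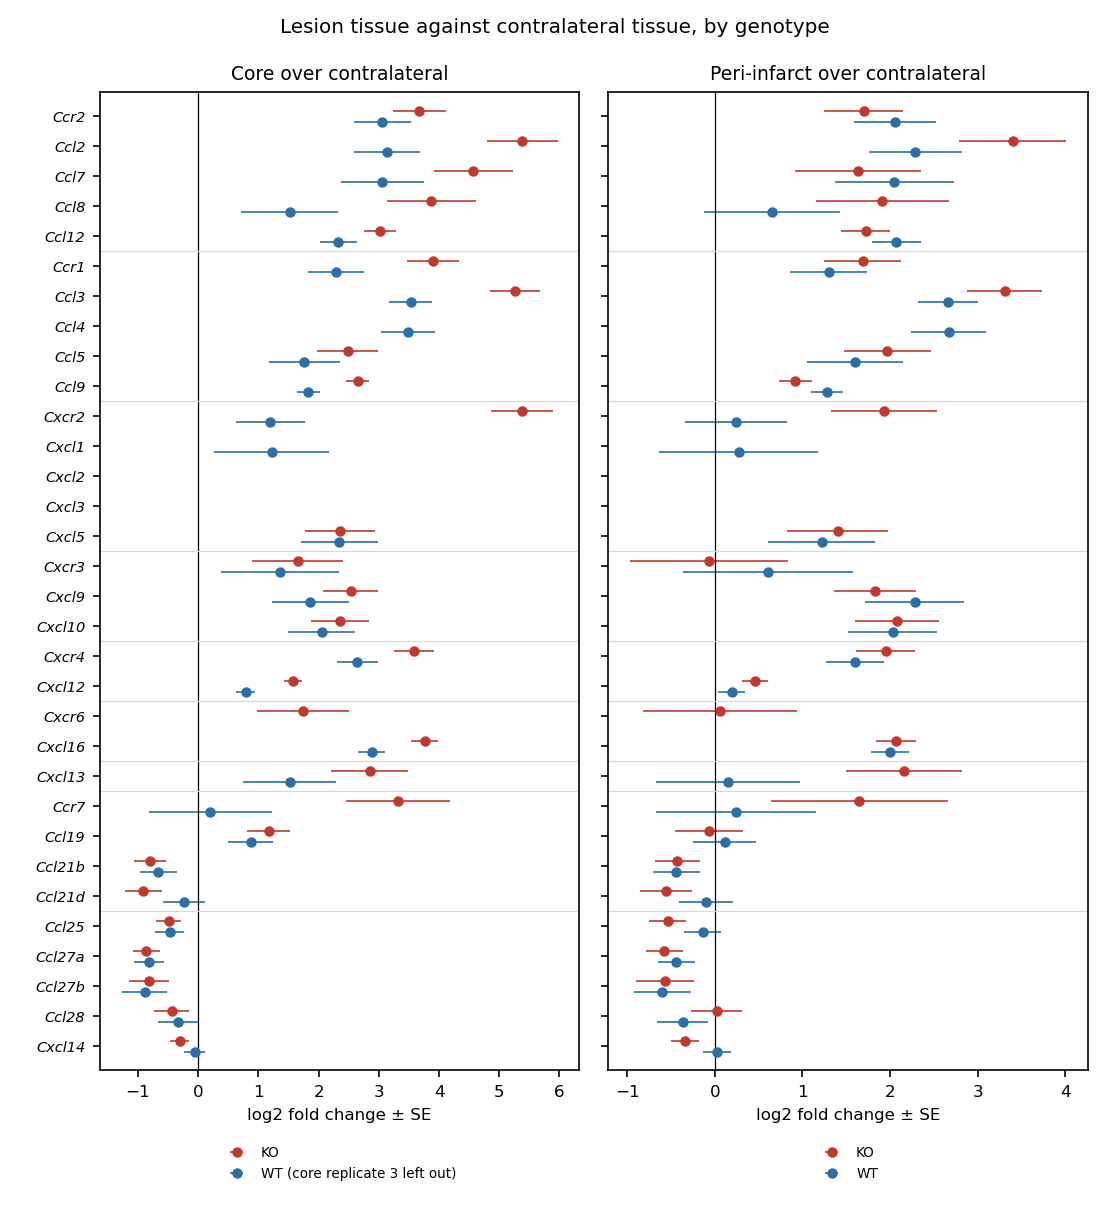
Points are log2 fold changes with SE from the fit without the third WT core library, core over contralateral tissue on the left and peri-infarct over contralateral tissue on the right, KO in red above WT in blue, for each member. Genes with at most 3 counts summed over the 3 libraries of either group are left out of that column of points. Nearly all receptors and inducible ligands lie right of 0, and Ccl21b, Ccl27a and Ccl27b lie left of it in core tissue of both genotypes.

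With all 18 libraries edgeR called no member between genotypes in any single region. In KO core against WT core tissue 0 members were called by edgeR, where 0.013% of all genes were, while 7 passed an unadjusted p of 0.05, DESeq2 called 0 and limma on log2(TPM + 1) called Cxcl2, Cxcl3 and Cxcl9. Without the third WT core library Cxcr2, Cxcl2, Cxcl3, Cxcl9 and Cxcl12 were called, 5 members, each higher in KO core, where 0.998% of all genes were called higher. In peri-infarct tissue 0 were called with all libraries (0.00652% of all genes, 4 members at an unadjusted p of 0.05, 0 by DESeq2) and 0 without it (0.117% of all genes, 7 members unadjusted). In contralateral tissue 0 were called with all libraries (0.00652% of all genes, 4 members unadjusted, 0 by DESeq2) and 0 without it (0.0389% of all genes, 6 members unadjusted). Averaged over the 3 regions, 0 members were called by edgeR with all libraries, where 0.228% of all genes were, although 8 passed an unadjusted p of 0.05 and DESeq2 called Ccl3, Ccl4, Ccl5 and Cxcl9. Without the library Cxcl9 was called higher in KO, where 2.26% of all genes were, and Ccl3 and Ccl4 lower in KO, where 5.2% were.

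The core libraries also differed in cell markers. Summed over 10 neutrophil markers, KO core had 120, 188 and 99.1 CPM and WT core 70.8, 71.6 and 231 CPM. Summed over 6 fibroblast and meningeal markers, KO core had 1260 to 2470 CPM and WT core 1080 and 1110 CPM in its first 2 libraries and 3230 CPM in the third. For 6 neuron markers the sums were 4030 to 4820 CPM in KO core and 7090, 6530 and 18.2 CPM in WT core. In peri-infarct tissue they were 6290 to 7740 CPM in KO and 7300 to 8070 CPM in WT. The first 2 WT core libraries thus lay within the KO peri-infarct range but below the WT peri-infarct range, and all KO core libraries lay below both. By fibroblast and meningeal markers these 2 lay above peri-infarct tissue, which had 198 to 348 CPM in KO and 120 to 519 CPM in WT. For 7 microglial markers the sums were 1560 to 2330 CPM in KO core and 2180, 2350 and 7340 CPM in WT core. For 5 astrocyte markers they were 6040, 4510 and 5680 CPM in KO core and 4230, 4050 and 889 CPM in WT core, higher in KO core without overlap. No marker of these lists was at 0 in every library of a core group. The part of these differences in the results for core tissue was not tested.

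The receptor Ccr2 and its ligands Ccl2, Ccl7, Ccl8 and Ccl12, which draw monocytes, were higher in the infarct in both genotypes. All 5 were called in KO core against KO contralateral tissue and in WT core against WT contralateral tissue, and without the third WT core library Ccl8 was no longer called in WT (1.52 ± 0.81, adjusted p 0.15). Ccr2 had 8.96, 10.2 and 8.67 CPM in KO core, 5.06, 4.42 and 23.9 in WT core, 1.32, 2.26 and 3.82 in KO peri-infarct, 3.67, 1.27 and 2.30 in WT peri-infarct, 0.519, 0.676 and 0.955 in KO contralateral and 0.509, 0.293 and 0.881 CPM in WT contralateral tissue. Ccl2, the main monocyte attractant, had 10.1, 10.0 and 11.6 CPM in KO core, 4.53, 6.43 and 36.6 in WT core, 2.53, 2.32 and 3.55 in KO peri-infarct, 5.19, 1.16 and 2.99 in WT peri-infarct, 0.288, 0.282 and 0.169 in KO contralateral and 0.735, 0.117 and 0.998 CPM in WT contralateral tissue. For both genes core and contralateral libraries did not overlap in either genotype, and the third WT core library was the highest of all 18. The log2 fold change of Ccl2 in KO core over KO contralateral was 5.39 ± 0.92 (SE, adjusted p 0.00083), and in WT core over WT contralateral 4.66 ± 0.84 (adjusted p 0.00082), or 3.13 ± 0.55 without the library (adjusted p 0.00039).

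The other ligands of Ccr2 were low in contralateral tissue. Ccl12, a mouse relative of Ccl2, had 12.8, 10.7 and 14.1 CPM in KO core and 5.17, 7.98 and 31.5 in WT core, against 1.15, 1.13 and 2.30 CPM in KO contralateral and 1.47, 1.17 and 1.23 CPM in WT contralateral tissue. Ccl7 had 4.54 to 6.96 CPM in KO core and 1.69, 3.27 and 27.9 CPM in WT core, with 0.115 to 0.395 CPM in KO contralateral and 0.113 to 0.646 CPM in WT contralateral tissue. Ccl8, which in mice also acts through another receptor, had 4.87, 9.97 and 6.24 CPM in KO core and 1.69, 1.78 and 9.14 CPM in WT core. In the first 2 WT core libraries all 5 genes lay below the 3 KO core libraries, and in the third WT core library all but Ccl8 lay above them. In KO core over WT core the log2 fold change of Ccl12 was -0.24 ± 0.49 with all libraries (adjusted p 0.87) and 0.95 ± 0.28 without the third (adjusted p 0.076). None of the 5 was called by edgeR between genotypes in any region. Summed over 8 markers of monocytes and infiltrating macrophages, KO core had 938, 1350 and 1180 CPM and WT core 905, 1290 and 4820 CPM. KO peri-infarct had 224 to 328 CPM and WT peri-infarct 376 to 758 CPM of them. Their part was not tested. In peri-infarct over contralateral tissue Ccl2 was called in KO (3.47 ± 0.92, adjusted p 0.049). Leaving out the third WT core library, Ccl2, Ccl12 and Ccr2 were called in KO and these and Ccl7 in WT, where Ccl7 was no longer called with the replicate block.

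Ccr1, a receptor of monocytes, macrophages and neutrophils, and the ligands Ccl3, Ccl4, Ccl5 and Ccl9 were called higher in core than in contralateral tissue in both genotypes, 5 of 5, with and without the third WT core library. Ccr1 had 13.5, 17.0 and 14.1 CPM in KO core, 4.76, 6.32 and 32.4 in WT core, 1.78, 2.84 and 5.37 in KO peri-infarct, 3.96, 1.85 and 2.70 in WT peri-infarct, 1.44, 0.507 and 1.01 in KO contralateral and 0.791, 0.880 and 1.70 CPM in WT contralateral tissue. The third WT core library was the highest of all 18, the other 2 WT core libraries lay below all KO core libraries, and the genotypes overlapped in the other 2 regions. In core over contralateral tissue the log2 fold change of Ccr1 was 3.90 ± 0.72 in KO (adjusted p 0.0014) and 3.68 ± 0.71 in WT (adjusted p 0.0013), or 2.29 ± 0.46 in WT without the third WT core library (adjusted p 0.0011). In KO core over WT core it was 0.04 ± 0.61 (adjusted p 0.99), or 1.44 ± 0.42 without that library (adjusted p 0.080). In peri-infarct over contralateral tissue Ccr1 was not called by edgeR in the fit of all 18 libraries. Without the third WT core library Ccr1 was called in KO (1.69 ± 0.44, adjusted p 0.014) and missed the threshold in WT (1.30 ± 0.44, adjusted p 0.051). The difference between these was not called (0.39 ± 0.63, adjusted p 1).

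Ccl3 and Ccl4, neighbouring genes for macrophage inflammatory proteins that microglia and macrophages release, lay lower in KO than in WT tissue outside the core. Ccl3 had 8.19, 9.35 and 7.35 CPM in KO core, 10.1, 8.04 and 38.1 in WT core, 1.44, 2.90 and 2.38 in KO peri-infarct, 6.76, 3.88 and 4.49 in WT peri-infarct, 0.288, 0.282 and 0.0562 in KO contralateral and 0.961, 0.821 and 0.529 CPM in WT contralateral tissue. Ccl4 had 4.70, 6.18 and 4.76 CPM in KO core, 6.91, 7.12 and 37.5 in WT core, 0.460, 1.68 and 2.22 in KO peri-infarct, 5.65, 3.01 and 3.57 in WT peri-infarct, 0.0575, 0.0564 and 0 in KO contralateral and 0.678, 0.587 and 0.587 CPM in WT contralateral tissue. KO and WT libraries of Ccl4 overlapped in no region, and those of Ccl3 overlapped in the core alone. Averaged over regions, the log2 fold change of Ccl3 in KO over WT was -1.40 ± 0.35 (adjusted p 0.14) with all libraries and -1.04 ± 0.22 without the third WT core library (adjusted p 0.013). For Ccl4 it was -2.33 ± 0.48 (adjusted p 0.082) with all libraries and -1.89 ± 0.32 without it (adjusted p 0.0057), a value that depends on the prior count because KO contralateral tissue held 2 counts of Ccl4 in all, against 32 in WT contralateral tissue. That is a ratio of 16.4 of WT over KO, with a 95% interval of 4.17 to 141 that covers counting error only. Averaged over regions, Ccl4 was also called lower in KO without WT core replicate 1 or 2. The same call was made by DESeq2 and by limma on log2(TPM + 1) or log2(TPM + 0.1), and of all these only DESeq2 called Ccl3. Neither was called there with limma-voom, or by edgeR when any 1 library outside WT core was left out. In peri-infarct tissue alone, the log2 fold change of Ccl3 without the third WT core library was -1.18 ± 0.30 (adjusted p 0.14). That of Ccl4 was -1.49 ± 0.39 (adjusted p 0.14), so neither was called in that region.

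Across the contralateral groups the level of Ccl3 and Ccl4 was low, and it was higher in all lesion groups. Ccl3 was called higher in KO peri-infarct over KO contralateral tissue (3.38 ± 0.70, adjusted p 0.019) and in WT peri-infarct over WT contralateral tissue (2.70 ± 0.58, adjusted p 0.027). Ccl4 in WT peri-infarct over WT contralateral tissue was called at the threshold itself (2.71 ± 0.69, adjusted p 0.050), and with the replicate block within genotype it was 2.75 and no longer called (adjusted p 0.057). It was called with the block or without it once the third WT core library was left out. Its ratio of counts in KO peri-infarct over KO contralateral tissue was 38.7 (interval 10.3 to 325). Summed over 7 microglial markers, KO peri-infarct had 998 to 1120 CPM and WT peri-infarct 1330 to 1630 CPM, and KO contralateral had 375 to 428 CPM and WT contralateral 437 to 491 CPM. The marker sums thus did not overlap between genotypes in these 2 regions, in the direction of Ccl3 and Ccl4, and their part was not tested. Lower in KO without overlap were 4 members in peri-infarct tissue, Ccl3, Ccl4, Ccl9 and Cxcl16, where 9.27% of all genes were, and 6 in contralateral tissue, the same 4 with Ccl27b and Cxcr2, where 10.5% were.

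Ccl9, a Ccr1 ligand that rodents have, and Ccl5, which T cells and macrophages make, lay in opposite directions between genotypes in peri-infarct tissue. In core tissue the genotypes overlapped for Ccl9. Neither gene was called between genotypes by edgeR with all libraries or without the third WT core library, while DESeq2 called Ccl5 in the mean of regions. Ccl9 had 21.7, 17.9 and 17.1 CPM in KO core, 12.6, 18.3 and 76.6 in WT core, 5.29, 5.62 and 6.87 in KO peri-infarct, 11.4, 8.92 and 11.8 in WT peri-infarct, 3.40, 2.31 and 3.26 in KO contralateral and 4.07, 4.11 and 4.76 CPM in WT contralateral tissue. In KO peri-infarct over WT peri-infarct tissue the log2 fold change of Ccl9 was -0.85 ± 0.48 (adjusted p 1), or -0.87 ± 0.18 without the third WT core library (adjusted p 0.068). Ccl5 had 5.98, 4.12 and 4.92 CPM in KO core, 1.10, 2.76 and 1.82 in WT core, 3.17, 5.10 and 2.77 in KO peri-infarct, 1.69, 1.04 and 2.53 in WT peri-infarct, 0.460, 0.507 and 1.69 in KO contralateral and 0.396, 0.411 and 0.881 CPM in WT contralateral tissue. KO lay above WT without overlap in core and in peri-infarct tissue. The third WT core library was not the highest of its group for Ccl5. Its log2 fold change averaged over regions was 1.04 ± 0.30 (adjusted p 0.19), or 1.04 ± 0.30 without that library (adjusted p 0.051), which did not pass. Of 11 T and NK cell markers 3 passed the filter on low counts with all libraries. The sums over the 11 were 7.19, 9.19 and 5.45 CPM in KO core and 4.13, 3.67 and 13.7 CPM in WT core. They were 7.94 to 11.4 CPM in KO peri-infarct and 3.67 to 9.32 CPM in WT peri-infarct tissue. In contralateral tissue these sums were 5.64 to 12.8 CPM in KO and 2.03 to 6.11 CPM in WT. Their part was not tested.

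**Figure D3:**
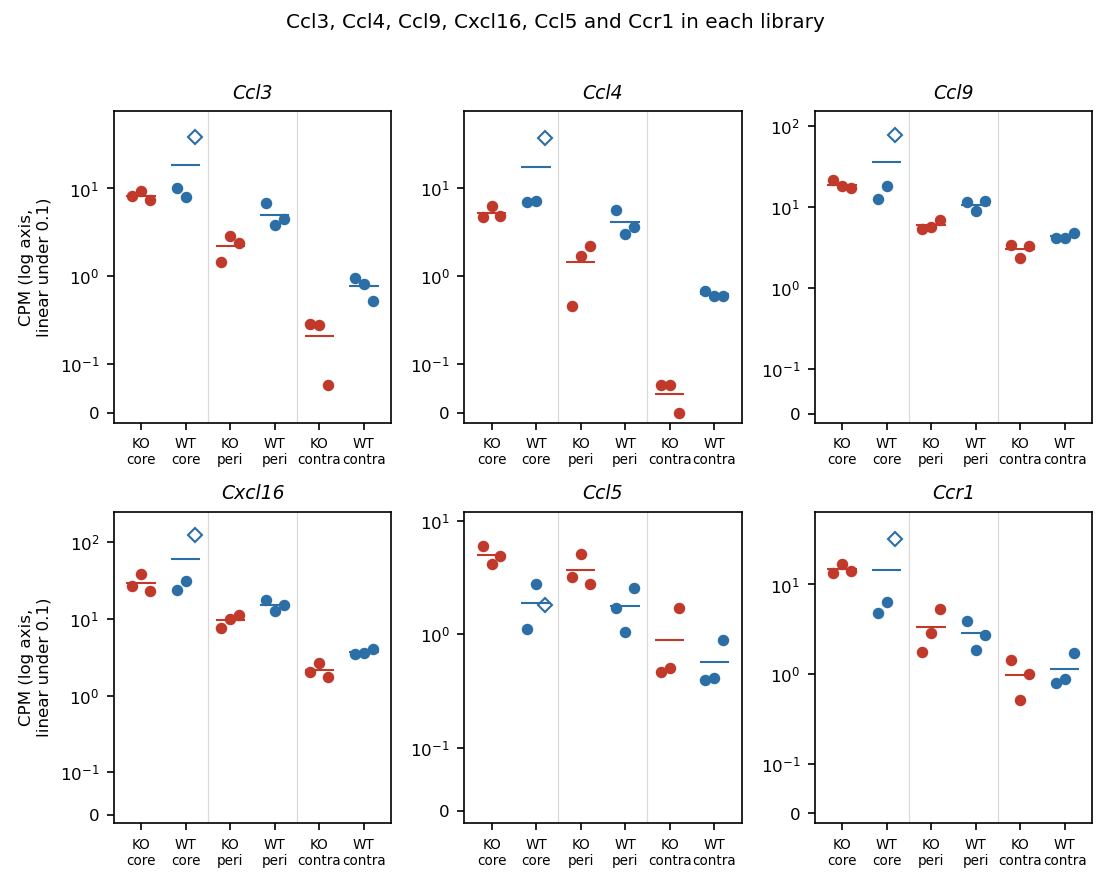
Each point is the CPM of 1 library, KO in red and WT in blue, with the group mean as a bar, for Ccl3, Ccl4, Ccl9, Cxcl16, Ccl5 and Ccr1. The open diamond is the third WT core library. Ccl3 and Ccl4 lie lower in KO than in WT peri-infarct and contralateral libraries, and Ccl5 lies higher in KO core and KO peri-infarct libraries.

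Cxcr2, the receptor that takes neutrophils into tissue, and its ligands Cxcl1, Cxcl2, Cxcl3 and Cxcl5 were all called higher in KO core than in KO contralateral tissue, and 4 of the 5, all but Cxcl1, in WT core than in WT contralateral tissue. Without the third WT core library Cxcr2 was no longer called in WT (1.20 ± 0.58, adjusted p 0.12), while it remained so in KO (5.38 ± 0.52, adjusted p 6e-07). Cxcr2 had 5.67, 7.52 and 4.27 CPM in KO core, 0.465, 0.799 and 6.22 in WT core, 0.514, 0.348 and 0.776 in KO peri-infarct, 0.464, 0.0579 and 0.460 in WT peri-infarct, 0.115, 0.113 and 0.175 in KO contralateral and 0.177, 0.352 and 0.317 CPM in WT contralateral tissue. The 3 KO core libraries and the third WT core library were high, and the other 2 WT core libraries lay near the peri-infarct level. The same 2 WT core libraries had the lowest neutrophil marker sums of the core, 70.8 and 71.6 CPM, and the third WT core library had the highest, 231 CPM. Sums over 4 border macrophage markers lay likewise, at 41.4, 36.7 and 149 CPM in WT core and 51.3 to 70.2 CPM in KO core. So did the fibroblast and meningeal sums and those of T and NK cells. The sums of monocytes, microglia, B cells and dendritic cells overlapped between the first 2 WT core libraries and KO core. The part of these cells in the values of Cxcr2 was not tested. The log2 fold change of Cxcr2 in KO core over WT core was 1.23 ± 0.71 with all libraries (adjusted p 0.48) and 3.20 ± 0.50 without the third (adjusted p 0.013). The difference between genotypes of the core response, KO core over KO contralateral against WT core over WT contralateral, was 4.18 ± 0.83 for Cxcr2 without that library, with an unadjusted p of 0.00016 that did not pass adjustment (0.36).

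Cxcl2 and Cxcl3, ligands of Cxcr2 made by activated macrophages and neutrophils, lay higher in KO core than in every WT core library, the third included. Cxcl2 had 8.58, 7.52 and 10.2 CPM in KO core and 0.291, 1.49 and 3.63 CPM in WT core. It had 0.0576 to 0.609 CPM in KO peri-infarct and 0 to 0.232 in WT peri-infarct, and at most 0.0562 CPM in KO contralateral and 0.117 CPM in WT contralateral tissue. Cxcl3 had 4.04, 4.29 and 2.75 CPM in KO core and 0.465, 0.459 and 1.49 CPM in WT core, and at most 0.166 CPM in KO peri-infarct, 0.0583 in WT peri-infarct, 0 in KO contralateral and 0.0587 CPM in WT contralateral tissue. Outside core libraries Cxcl3 had at most 3 counts and Cxcl2 at most 11, in the third KO peri-infarct library, which lay above the first WT core library for Cxcl2. In KO core over WT core Cxcl2 had a log2 fold change of 2.28 ± 0.75 with all libraries (adjusted p 0.40) and 3.30 ± 0.69 without the third (adjusted p 0.027). For Cxcl3 it was 2.20 ± 0.58 with all libraries (adjusted p 0.40) and 3.00 ± 0.54 without the third (adjusted p 0.019). Cxcl3 reached 10 counts only in the KO core libraries and the third WT core library. Cxcl2 and Cxcr2 reached 10 counts in 6 libraries each, all KO core libraries among them. Part of the difference of these 3 genes between genotypes in the core thus came with the choice of members. Cxcl3 had 202 counts in KO core and 0 in KO contralateral tissue, at least 64.8-fold higher against a floor of 3 counts over the group, and 39 counts in WT core and 2 in WT contralateral tissue, a ratio of 20.2 (interval 5.22 to 172). Cxcl2 had 482 counts in KO core and 1 in KO contralateral tissue (ratio 464, interval 82.9 to 18400), and 87 counts in WT core and 3 in WT contralateral tissue (ratio 30.0, interval 9.93 to 148).

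The other 2 ligands of Cxcr2 did not follow this pattern between genotypes. Cxcl1 had 1.77, 2.73 and 2.48 CPM in KO core, 0.232, 3.44 and 3.83 in WT core, 0.460, 0.464 and 0.775 in KO peri-infarct, 0.350, 1.80 and 0.748 in WT peri-infarct, 0, 0 and 0.112 in KO contralateral and 0.0565, 1.76 and 0.529 CPM in WT contralateral tissue. Its log2 fold change in KO core over WT core was -0.10 ± 0.87 (adjusted p 0.98), or 0.36 ± 0.90 without the third WT core library (adjusted p 0.86). In contralateral tissue Cxcl1 had 2 counts in KO and 40 in WT, a ratio of 20.4 of WT over KO (interval 5.30 to 175), but 30 of the 40 counts came from the second WT library and 1 from the first, so the libraries overlapped. Cxcl5, a neutrophil attractant of epithelium and stroma, had 5.64, 8.30 and 15.2 CPM in KO core, 2.96, 11.5 and 5.32 in WT core, 4.55, 4.93 and 6.26 in KO peri-infarct, 4.72, 2.55 and 2.88 in WT peri-infarct, 0.921, 3.5 and 1.24 in KO contralateral and 0.848, 2.29 and 1.12 CPM in WT contralateral tissue. The second WT core library was low for neither gene, and the genotypes overlapped for Cxcl5 in every region.

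**Figure D4:**
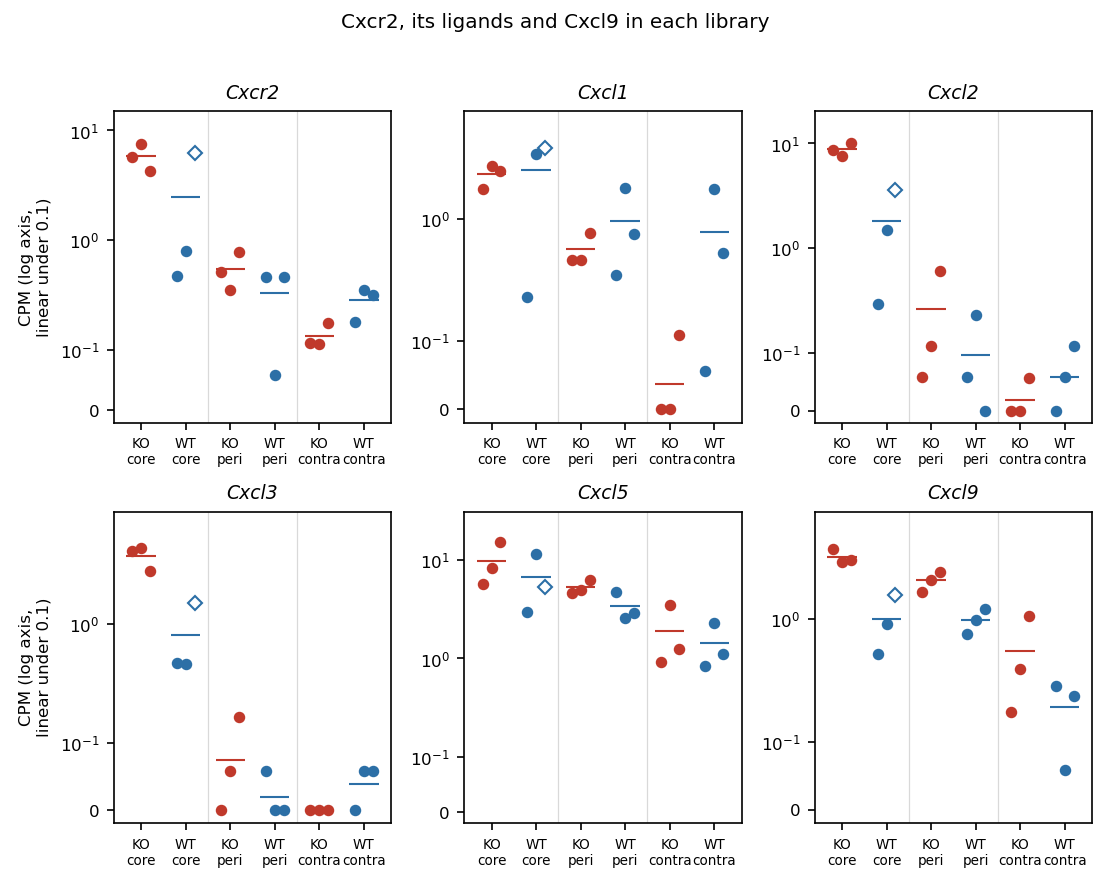
Each point is the CPM of 1 library, KO in red and WT in blue, with the group mean as a bar, for Cxcr2, Cxcl1, Cxcl2, Cxcl3, Cxcl5 and Cxcl9. The open diamond is the third WT core library. For Cxcr2 that library lies among the KO core libraries, and for Cxcl2, Cxcl3 and Cxcl9 it lies below all 3 of them.

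Cxcl9 and Cxcl10, the interferon-induced ligands of Cxcr3 that draw activated T cells, were called higher in core than in contralateral tissue in both genotypes with and without the third WT core library, and Cxcr3 was called by edgeR in neither of these fits. Cxcl9 had 3.76, 2.90 and 3.01 CPM in KO core, 0.523, 0.919 and 1.56 in WT core, 1.67, 2.09 and 2.44 in KO peri-infarct, 0.758, 0.984 and 1.21 in WT peri-infarct, 0.173, 0.395 and 1.07 in KO contralateral and 0.283, 0.0587 and 0.235 CPM in WT contralateral tissue. KO lay above WT without overlap in core and in peri-infarct tissue. Without overlap, 4 members lay higher in KO core, Ccl5, Cxcl2, Cxcl3 and Cxcl9, where 5.17% of all genes did. When the third WT core library was left out 15 members did, where 18.1% of all genes did. With all libraries 3 lay higher in KO peri-infarct tissue, Ccl5, Cxcl9 and Cxcl13, where 8.02% did. The log2 fold change of Cxcl9 in KO core over WT core was 1.69 ± 0.50 with all libraries (adjusted p 0.40) and 2.17 ± 0.52 without the third (adjusted p 0.039). Averaged over regions it was 1.41 ± 0.32 with all libraries (adjusted p 0.10) and 1.57 ± 0.30 without it (adjusted p 0.0096). Cxcl9 was called higher in KO core over KO contralateral tissue at 2.55 ± 0.53 (adjusted p 0.0030) and in WT core over WT contralateral tissue at 2.32 ± 0.62 (adjusted p 0.0094), or 1.86 ± 0.64 without the library (adjusted p 0.031).

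Cxcl10 was present at overlapping levels in core and peri-infarct tissue. It had 20.3, 13.8 and 26.5 CPM in KO core, 9.53, 12.4 and 21.3 in WT core, 12.9, 20.1 and 19.6 in KO peri-infarct, 8.34, 9.61 and 15 in WT peri-infarct, 1.84, 2.76 and 7.14 in KO contralateral and 4.80, 1.64 and 1.41 CPM in WT contralateral tissue. In KO core over KO peri-infarct tissue the log2 fold change of Cxcl10 was 0.21 ± 0.50 (adjusted p 0.81), and in WT core over WT peri-infarct 0.39 ± 0.51 (adjusted p 0.55), or 0.02 ± 0.51 without the third WT core library (adjusted p 0.99), while KO peri-infarct over KO contralateral gave 2.16 ± 0.54 (adjusted p 0.036). Genotypes overlapped for Cxcl10 in every region, except that the third WT core library alone made the overlap in the core. Its difference between genotypes averaged over regions was 0.58 ± 0.30 (adjusted p 0.43), or 0.72 ± 0.29 without that library (adjusted p 0.13). Cxcr3 was scarce, with 11, 11 and 5 counts in KO core, 6, 3 and 18 in WT core and at most 6 counts in any library of the other groups. In WT core over WT contralateral tissue its log2 fold change by edgeR was 2.44 ± 0.95 with all libraries (adjusted p 0.054) and 1.36 ± 0.98 without the third WT core library (adjusted p 0.29). DESeq2 called it there, as did edgeR without WT core replicate 1 or 2, KO contralateral replicate 1 or KO peri-infarct replicate 1 or 3.

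Cxcr4 and Cxcl12, which position blood cells and neural progenitors, were both called higher in core than in contralateral tissue in both genotypes. Cxcl12 had 96.8, 134 and 118 CPM in KO core, 69.0, 82.4 and 135 in WT core, 50.0, 60.9 and 57.9 in KO peri-infarct, 61.8, 44.8 and 46.0 in WT peri-infarct, 33.6, 42.8 and 40.5 in KO contralateral and 41.4, 47.4 and 42.1 CPM in WT contralateral tissue. The rise of Cxcl12 was small beside that of the inducible ligands, 1.58 ± 0.22 on the log2 scale in KO core over KO contralateral tissue (adjusted p 0.00025) and 1.13 ± 0.22 in WT core over WT contralateral tissue (adjusted p 0.0013), or 0.79 ± 0.16 without the third WT core library (adjusted p 0.0013). Its log2 fold change in KO core over WT core was 0.29 ± 0.21 with all libraries (adjusted p 0.58) and 0.64 ± 0.16 without the third (adjusted p 0.049). Cxcr4 had 20.9, 30.3 and 18.6 CPM in KO core, 11.4, 20.8 and 68.9 in WT core, 6.27, 8.18 and 9.14 in KO peri-infarct, 8.63, 7.12 and 8.23 in WT peri-infarct, 1.38, 2.59 and 1.80 in KO contralateral and 1.47, 2.58 and 3.70 CPM in WT contralateral tissue. Levels of Cxcr4 overlapped between genotypes in every region, and its log2 fold change in KO core over WT core was -0.53 ± 0.49 (adjusted p 0.67), or 0.55 ± 0.32 without the third WT core library (adjusted p 0.35).

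Cxcl16, a ligand that macrophages hold at the membrane or shed, was called higher in lesion tissue in each comparison with contralateral tissue. It had 27.1, 38.5 and 23.4 CPM in KO core, 24.2, 30.9 and 125 in WT core, 7.69, 9.93 and 11.3 in KO peri-infarct, 17.5, 12.8 and 15.3 in WT peri-infarct, 2.05, 2.70 and 1.74 in KO contralateral and 3.45, 3.58 and 4.11 CPM in WT contralateral tissue. Regions did not overlap within either genotype. The log2 fold change was 3.77 ± 0.53 in KO core over KO contralateral (adjusted p 0.00025) and 4.01 ± 0.52 in WT core over WT contralateral tissue (adjusted p 0.00012), or 2.88 ± 0.23 without the third WT core library (adjusted p 2.5e-07). It was 2.15 ± 0.51 in KO peri-infarct over KO contralateral (adjusted p 0.030) and 2.03 ± 0.49 in WT peri-infarct over WT contralateral tissue (adjusted p 0.040). DESeq2 made both of these calls and limma-voom neither. The KO call was lost when any 1 KO contralateral or KO peri-infarct library, or WT contralateral replicate 3, was left out. The WT call was lost when any 1 library outside WT core was left out, and with RLE factors or no filter. KO lay below WT without overlap in peri-infarct and contralateral tissue, but the difference averaged over regions was not called (-0.81 ± 0.28, adjusted p 0.25, or -0.43 ± 0.13 without the third WT core library, adjusted p 0.054). Its receptor Cxcr6, a marker of tissue T cells, had 13, 16 and 10 counts in KO core and 5, 11 and 19 in WT core, and 0, 7 and 4 counts in KO contralateral and 0, 0 and 2 in WT contralateral tissue. It was called in WT core over WT contralateral tissue, where 35 counts stood against 2 (ratio 18.1, interval 4.65 to 155).

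Cxcl13, which attracts B cells and is made by macrophages, and Ccr7, the receptor of migrating dendritic cells, were both scarce. Cxcl13 had 21, 19 and 15 counts in KO core, 2, 12 and 16 in WT core, 10, 12 and 12 in KO peri-infarct, 3, 3 and 2 in WT peri-infarct, 1, 2 and 4 in KO contralateral and 3, 0 and 4 counts in WT contralateral tissue. Between KO peri-infarct and WT peri-infarct tissue the log2 fold change of Cxcl13 was 2.01 ± 0.71 (adjusted p 1), or 2.00 ± 0.65 without the third WT core library (adjusted p 0.23), and its libraries there did not overlap. In core over contralateral tissue Cxcl13 was called in KO (2.86 ± 0.71, adjusted p 0.0093) and in WT (2.11 ± 0.74, adjusted p 0.035), but the value in WT without that library was 1.52 ± 0.77 (adjusted p 0.13). Ccr7 had 16, 19 and 10 counts in KO core and 0, 7 and 10 in WT core, and 2, 1 and 1 counts in KO contralateral and 0, 2 and 7 in WT contralateral tissue. It was called higher in KO core over KO contralateral tissue without the third WT core library (3.32 ± 0.87, adjusted p 0.0045). Ccr7 reached 10 counts only in the KO core libraries and the third WT core library, so part of this difference came with the choice of members. Summed over 4 B cell markers, all groups lay at 0.450 to 5.64 CPM, and over 6 dendritic cell markers at 16.1 to 110 CPM, the highest in both cases being the third WT core library. The B cell marker Ms4a1 was at 0 in all KO peri-infarct and all WT contralateral libraries. The part of these cells in the values was not tested.

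The ligands of Ccr7 and those made without inflammation included genes that were lower in core tissue. Ccl19, which leads dendritic cells and T cells into lymph nodes, had 1.12, 1.68 and 0.829 CPM in KO core, 1.06, 1.66 and 3.64 in WT core, 0.417 to 0.666 CPM in KO contralateral and 0.561 to 0.882 CPM in WT contralateral tissue. It was called in WT core over WT contralateral tissue with all libraries (1.51 ± 0.43, adjusted p 0.014) but not without the third WT core library (0.87 ± 0.38, adjusted p 0.082). In KO core over KO contralateral tissue it was not called with all libraries (1.18 ± 0.45, adjusted p 0.073) and was called without that library (1.17 ± 0.36, adjusted p 0.012), as it was in KO core over KO peri-infarct tissue (1.23 ± 0.36, adjusted p 0.014). Ccl21b had 19.6, 22.4 and 16.6 CPM in KO core and 23.2, 15.1 and 0.982 in WT core, against 25.1, 42.1 and 34.3 CPM in KO contralateral and 28.9, 25.7 and 36.0 in WT contralateral tissue. Ccl27a, known as a skin-homing chemokine, had 31.3, 32.4 and 21.6 CPM in KO core and 35.5, 24.9 and 2.06 in WT core, against 44.5, 53.7 and 55.2 CPM in KO contralateral and 48.5, 52.9 and 56.8 in WT contralateral tissue. These 2 were lower in core than in contralateral tissue without overlap in both genotypes, as was Ccl27b. Among these 3 and Ccl21d none was called by edgeR in the 6-group fit with all libraries. Without the third WT core library Ccl27a was called in KO (-0.86 ± 0.22, adjusted p 0.0037) and in WT (-0.81 ± 0.25, adjusted p 0.017), and Ccl21b, Ccl21d and Ccl27b were called in KO. The difference between genotypes of the core response had an adjusted p of 0.98 for Ccl27a, 0.98 for Ccl27b, 0.94 for Ccl21b and 0.68 for Ccl21d in that fit.

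In the third WT core library, which had the lowest neuron markers, Ccl21b, Ccl21d, Ccl25, Ccl27a, Ccl27b, Ccl28 and Cxcl14 were also the lowest of all libraries. Ccl28 had 0.324 CPM in it, against 1.73 to 2.38 CPM in KO core and 2.21 and 2.70 CPM in the other WT core libraries. Cxcl14, a ligand with no agreed receptor in the family, had 85.1, 79.7 and 74.2 CPM in KO core and 98.4, 74.9 and 40.5 in WT core, 75.2, 93.3 and 74.9 in KO peri-infarct and 68.6, 95 and 118 in WT peri-infarct, and 102, 96.4 and 95.7 CPM in KO contralateral and 93.0, 88.0 and 90.0 CPM in WT contralateral tissue. Cxcl14 was called by edgeR in no comparison of the 6-group fit with all libraries or without the third WT core library. Without WT core replicate 1 it was called lower in WT core than in WT contralateral and WT peri-infarct tissue. In fits of only the groups compared it was also called lower in KO core and in KO peri-infarct than in KO contralateral tissue. Its log2 fold change in KO core over KO contralateral tissue was -0.30 ± 0.25 (adjusted p 0.39). Ccl25, a thymic and gut chemokine, had 2.43 to 3.04 CPM in KO core and 1.88 to 2.87 in WT core, against 3.38 to 4.14 CPM in KO contralateral and 2.49 to 4.17 in WT contralateral tissue. Ccl25 was not called by edgeR with TMM factors and no block, either with all libraries or without the third WT core library. With RLE factors, without WT core replicate 2 or without WT contralateral replicate 1 it was called lower in WT core than in WT contralateral tissue, and with the block and without the third WT core library in KO core. The sums over 6 neuron markers were 4030 to 4820 CPM in KO core and 8450 to 9120 CPM in KO contralateral tissue. Their part in the values of these ligands was not tested.

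**Figure D5:**
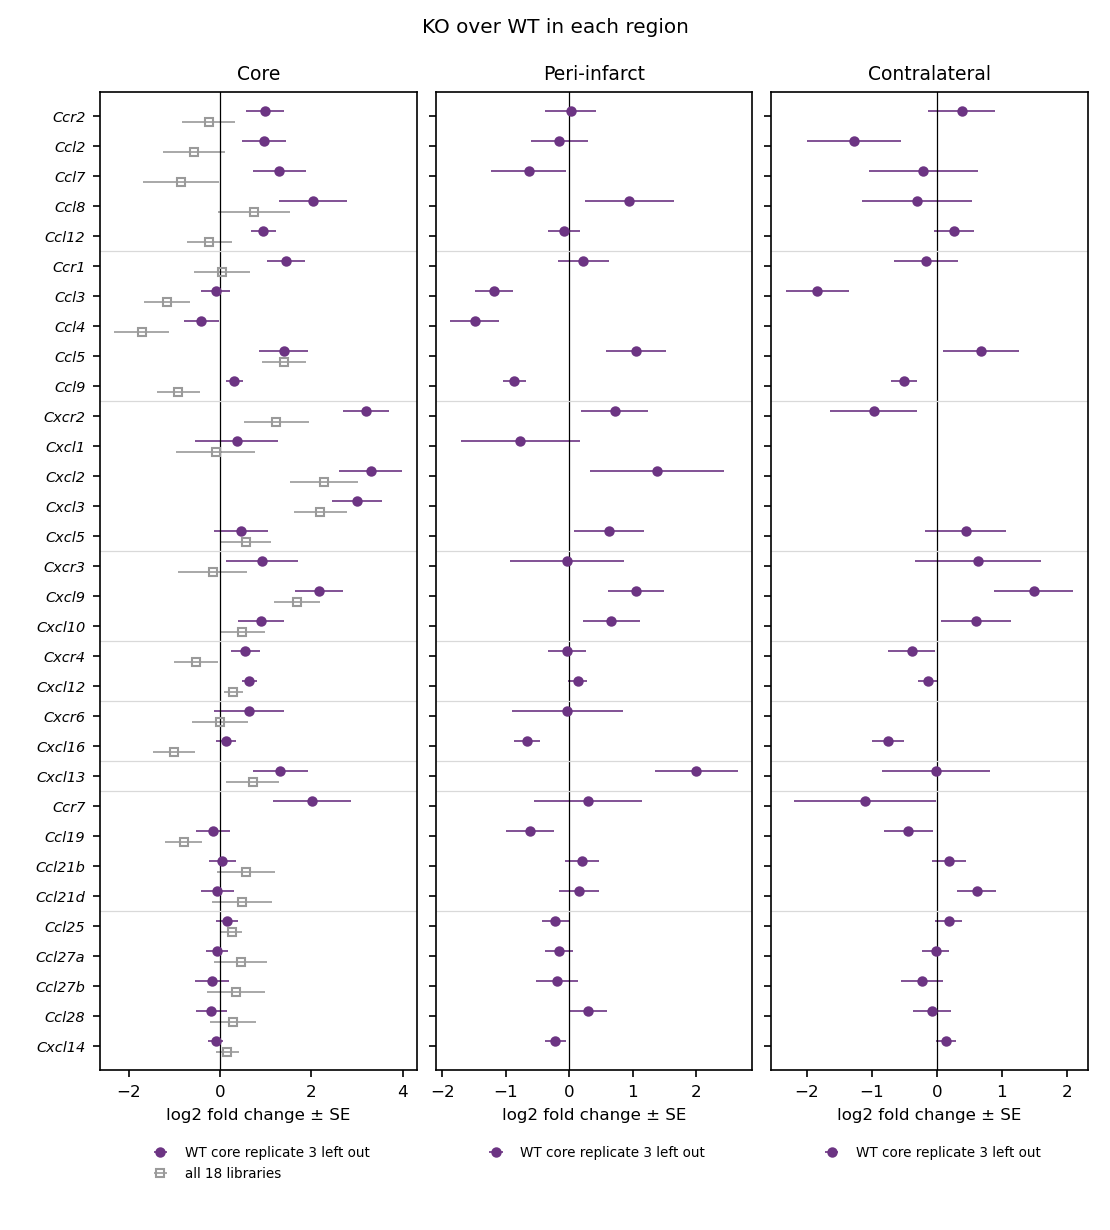
Points are log2 fold changes of KO over WT with SE in core, peri-infarct and contralateral tissue, from the fit without the third WT core library (purple), and in the core also with all 18 libraries (grey squares). Genes with at most 3 counts summed over the 3 libraries of either group are left out of that panel. In the core the purple points lie right of the grey ones for nearly all inducible members, and Cxcl2, Cxcl3, Cxcl9 and Ccl5 lie right of 0 in both.

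Whether the response to the lesion itself differed between genotypes was tested as the difference of 2 differences. For the core response edgeR called 0 members with all libraries, where 0% of all genes were, with 2 members at an unadjusted p of 0.05 and 0 by DESeq2, and 0 without the third WT core library, with 12 members unadjusted. For the peri-infarct response it called 0 with all libraries, where 0% of all genes were, with 0 members unadjusted and 0 by DESeq2, and 0 without the library, with 2 unadjusted. The core and peri-infarct responses of a genotype share its contralateral libraries. The differences in calls between genotypes given for single regions are therefore not shown to be differences in response.

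Beyond the family, 37 further genes of chemokine signalling were examined, and 35 of them passed the filter with all libraries. In KO core over KO contralateral tissue 19 of the 35 were called, each higher, and in WT core over WT contralateral tissue 24, each higher, where 19.7% and 29.1% of all genes were. Leaving out the third WT core library, 21 of 36 were called higher and 5 lower in KO, where 29.6% and 27.8% of all genes were. In WT 22 were called higher and 4 lower, where 23.6% and 16.6% of all genes were. Those with the smallest p in KO core were Cmklr1, a receptor for chemerin (2.66 ± 0.35, adjusted p 0.00022), Vav1, an exchange factor for Rac proteins (3.23 ± 0.42, adjusted p 0.00022), Itgb2, the common chain of leukocyte integrins (3.77 ± 0.52, adjusted p 0.00024), Rac2, a GTPase of blood cells (3.56 ± 0.49, adjusted p 0.00024), and Pik3cg, the lipid kinase that chemokine receptors activate (2.78 ± 0.39, adjusted p 0.00024). Between genotypes in the core 1 further gene, Cx3cl1, the membrane-bound chemokine of neurons that signals to microglia, was called, lower in KO core than in WT core when that library was left out (-0.78 ± 0.15, adjusted p 0.021), whereas its log2 fold change was -0.24 ± 0.67 with all libraries (adjusted p 0.92). Cx3cl1 had 4698, 4636 and 4162 counts in KO core and 7800, 7019 and 253 counts in WT core. The sums of neuron markers lay in the same order, and their part was not tested.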

How the data were processed

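Brain tissue of 6 groups (2 genotypes, 3 regions) was measured by RNA-seq of polyadenylated RNA in 18 libraries. The authors deposited expected counts per gene, estimates that need not be whole (19.4% of 18922 genes had such a value), and the authors' deposited TPM values, which are scaled to transcript length and library. GRCm39 and the tools Bowtie2, Subread and HISAT2 2.0.4 are listed in the submitters' processing notes. Which tool gave the estimates, and whether strand was used, is not stated in what was at hand. Expected counts were rounded to whole numbers, although the tests had been planned for counts, and entered into R 4.3.3. There edgeR 4.0.16 was run with its filterByExpr filter, TMM and a robust quasi-likelihood fit of 6 group means (12 residual degrees of freedom). SE was obtained from the size of a log2 fold change over the root of its F value. The 12 comparisons were adjusted by Benjamini-Hochberg over 15329 genes, or 15432 without the WT core library of replicate 3. Alternatives used DESeq2 1.42.0 and limma 3.58.1. The fit was tested on simulated data in which the spread of each gene was capped and no library stood apart. That test therefore cannot show how the fit handles the WT core library of replicate 3. Ratios for groups with at most 3 counts carry exact 95% intervals that, like the floor of 3 counts, cover counting error only.

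Members and lists were chosen with earlier results of these data known. Every member could be named. Full statistics go to called members by size of fold change (at most 15 a comparison), or to the 5 smallest p where none passed, and ligands are described with their receptors. Of the other chemokine genes up to 6 with the smallest p are named. 2 symbols of the pattern are not reported here. Upstream sequences are from RefSeq, assembly GRCm38.p6, which is not the build of the files. Same-numbered WT peri-infarct and WT contralateral libraries deviated together from their group means (correlations 0.368, 0.482 and 0.414). The other pairs of groups within a genotype did not do so at all 3 numbers. Same-numbered KO contralateral and WT contralateral libraries, which are of different genotypes, had correlations of 0.331, 0.346 and -0.115. No label states a pairing, and with 3 libraries per group these values cannot establish one.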

Additional observations from a re-analysis of the deposited data

How the results depend on the processing

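Precision is limited by 3 libraries per group, by members with few counts (Cxcr3, Cxcr6, Ccr7, Cxcl13) and by the WT core library of replicate 3. Leaving out 1 library at a time gave 20 to 27 members called in KO core over KO contralateral, 18 to 29 in WT core over WT contralateral, 0 to 16 in KO core over KO peri-infarct, 0 to 19 in WT core over WT peri-infarct, 0 to 15 in KO peri-infarct over KO contralateral, 0 to 11 in WT peri-infarct over WT contralateral, 0 to 5 in KO core over WT core and 0 to 3 in the mean of regions. The other genotype comparisons stayed at 0. KO peri-infarct over KO contralateral gave 0 without KO contralateral replicate 1 or 2 or KO peri-infarct replicate 2 or 3, and WT peri-infarct over WT contralateral gave 0 without any WT contralateral library or WT peri-infarct replicate 1 or 3. The reasons were not tested.

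With DESeq2 the members called were 9 for KO peri-infarct over KO contralateral, 6 for WT peri-infarct over WT contralateral, 11 for KO core over KO peri-infarct and 4 for the mean of regions. For the same first 3 comparisons limma-voom gave 3, 0 and 2, log2(TPM + 1) 10, 7 and 12, log2(TPM + 0.1) 9, 8 and 9, no filter 3, 1 and 2, and a fit of only the groups compared 15, 9 and 18. RLE factors gave 1 for WT peri-infarct over WT contralateral. WT core over WT peri-infarct gave 0 with limma-voom, 4 with log2(TPM + 1), 1 with log2(TPM + 0.1) and 0 with only the groups compared, which also gave 0 for WT core over WT contralateral. KO core over WT core gave 3 with log2(TPM + 1), namely Cxcl2, Cxcl3 and Cxcl9. That scale gave 1 for the difference in core response and 3 for the mean of regions, where log2(TPM + 0.1) gave 1. The TPM scales moved the median log2 fold change of all genes in KO core over WT core to 0.22 and 0.28. The cause of these changes was not tested.

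The replicate block by number gave 9 members for KO peri-infarct over KO contralateral and 0 for WT core over WT peri-infarct, and the replicate block within genotype gave 0 for the second. In WT peri-infarct over WT contralateral, where same-numbered libraries deviated together, the replicate block within genotype gave 3, namely Ccl3, Ccl12 and Cxcl16. Ccl12 thus came in and Ccl4 was lost. With that block and without WT core replicate 3, an alternative chosen after seeing the data, the counts were 14 for KO peri-infarct over KO contralateral, 10 for WT peri-infarct over WT contralateral, 18 for KO core over KO peri-infarct and 3 for WT core over WT peri-infarct.

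Members called in a comparison, with or without WT core replicate 3, kept their direction there under every alternative that tested them. Ccr7, which did not pass the filter with all libraries, was not among the members checked for this.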
